A study of Mus musculus with 2 samples.

Results

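Mrc1 Cd163 F13a1 macrophages were 1938 nuclei, 1639 from the library labelled AHRfl/fl and 299 from the library labelled AHRmKO, out of 23616 nuclei that passed the limits on depth and mitochondrial share and out of 9053 leukocyte nuclei among them. They were chosen by their own counts of unique molecular identifiers (UMIs, each standing for 1 captured RNA molecule). A barcode needed at least 2000 UMIs with at most 5% from mitochondrial genes, and at least 4 UMIs in sum of the leukocyte genes Ptprc, Dock2, Arhgap15, Myo1f and Ly86. It then needed at least 3 UMIs in sum of Mrc1, F13a1 and Cd163, more than it held of Gpnmb, Atp6v0d2 and Alcam. Nuclei were left out where the cell cycle genes Top2a, Mki67, Kif11, Knl1 and Kif15 exceeded 2 UMIs in sum, where Pax7 and Pdgfra exceeded 1 UMI, or where the muscle fibre genes Ttn, Neb, Trdn and Dmd reached 1% of UMIs. Since this rule read the nuclei themselves, every gene level given here is a description of the chosen nuclei, and no test was run. Leukocyte nuclei with the balance the other way, at least 3 UMIs of Gpnmb, Atp6v0d2 and Alcam and more of these than of Mrc1, F13a1 and Cd163, are called Gpnmb macrophages and serve as the nearest comparison.

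The nuclei came from the tibialis anterior, the shin muscle that lifts the foot. The mice were male, were 16 to 20 weeks old and had chronic kidney disease, and their muscle was taken 5 days after the femoral artery had been tied off to make the limb ischaemic. The labels give both groups the same strain, a cross of a pair of lines. One carries the conditional aryl hydrocarbon receptor allele AHRtm3.1Bra/J, and the other is Tg(ACTA1-cre/Esr1*)2Kesr/J. The labels name the groups AHRfl/fl and AHRmKO. In that transgene a skeletal actin promoter drives a Cre recombinase fused to a modified oestrogen receptor, so the intended deletion of Ahr is in muscle fibres and not in macrophages. There was 1 library per group, and the sources used here give neither the number of animals in a library, nor whether the AHRfl/fl mice carried the transgene, nor how Cre was induced. Every interval below is a 95% interval that covers counting error only, not the spread between animals.

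Macrophages of injured muscle come from cells that live in the tissue and from monocytes that enter from blood, and they clear debris, present antigen and release factors that act on muscle stem cells. The mannose receptor CD206 (Mrc1) takes up glycoproteins and collagen fragments, the haemoglobin scavenger receptor CD163 takes up complexes of haptoglobin and haemoglobin, and coagulation factor XIII A (F13a1) is a transglutaminase that crosslinks fibrin. These genes mark macrophages often described as repair-associated or tissue-resident, whereas Gpnmb marks macrophages rich in lysosomes and lipid.

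The promoters of the 4 genes that name and mark the group are shown because the results turn on these genes. The sequences are from RefSeq on build GRCm38.p6, run from 250 bases before to 50 bases after the start of transcription, and are printed 5′ to 3′ along the gene. Capitals mark GAGGAA or its reverse complement, the core bound by PU.1, the factor encoded by Spi1 on which macrophage genes depend.
Mrc1, chr2:14229164-14229463, plus strand: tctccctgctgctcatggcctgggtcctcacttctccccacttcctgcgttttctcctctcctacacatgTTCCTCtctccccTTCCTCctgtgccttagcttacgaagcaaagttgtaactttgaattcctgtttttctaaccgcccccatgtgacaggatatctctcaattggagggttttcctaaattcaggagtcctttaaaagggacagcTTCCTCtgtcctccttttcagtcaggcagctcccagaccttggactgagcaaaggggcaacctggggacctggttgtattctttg
F13a1, chr13:37050195-37050494, minus strand: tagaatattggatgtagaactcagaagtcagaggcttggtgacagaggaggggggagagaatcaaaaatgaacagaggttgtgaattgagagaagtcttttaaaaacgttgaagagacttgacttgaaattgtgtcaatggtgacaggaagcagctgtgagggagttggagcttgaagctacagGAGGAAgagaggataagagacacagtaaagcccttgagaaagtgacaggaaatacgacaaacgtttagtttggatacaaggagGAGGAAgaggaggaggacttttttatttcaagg
Cd163, chr6:124304401-124304700, plus strand: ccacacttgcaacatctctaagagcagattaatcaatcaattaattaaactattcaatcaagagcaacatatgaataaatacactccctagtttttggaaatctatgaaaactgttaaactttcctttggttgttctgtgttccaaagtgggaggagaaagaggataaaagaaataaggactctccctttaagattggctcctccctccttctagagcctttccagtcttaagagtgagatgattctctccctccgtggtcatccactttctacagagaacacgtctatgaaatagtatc
Ms4a4a, chr19:11375238-11375537, plus strand: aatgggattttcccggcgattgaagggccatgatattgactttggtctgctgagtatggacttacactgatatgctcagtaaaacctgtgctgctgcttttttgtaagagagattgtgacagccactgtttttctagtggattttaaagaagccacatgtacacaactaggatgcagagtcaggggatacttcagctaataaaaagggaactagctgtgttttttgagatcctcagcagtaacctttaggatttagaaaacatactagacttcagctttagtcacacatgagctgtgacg
Mrc1 held the motif 3 times, each time on the minus strand, with the nearest match 35 bases before the start. F13a1 held it 2 times on the plus strand, and a second F13a1 window in RefSeq held it 1 time. The letters were not in the Cd163 and Ms4a4a windows. GAGGAA on either strand was in 28.3% of 32851 RefSeq promoters of this length, and a match is a stretch of letters, not a binding site.

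Mrc1 was the most abundant of the naming genes. In the files' gene models (GENCODE M21, build GRCm38) it lies at chr2:14229392-14332057 on the plus strand, and its level was 2474 counts per 1000000 UMIs (CPM) in members of the library labelled AHRfl/fl and 1960 CPM in those labelled AHRmKO. Gpnmb macrophages held 261 and 252 CPM. F13a1 (chr13:36867178-37050244, minus strand) stood at 2159 CPM in AHRfl/fl members and 828 CPM in AHRmKO members, beside 255 and 173 CPM in Gpnmb macrophages. Cd163 (chr6:124304656-124330527, plus strand) was lower throughout, at 385 and 327 CPM in members and 31.1 and 23.9 CPM in Gpnmb macrophages. The rule fixed that these 3 genes were higher in members. Ms4a4a (chr19:11375523-11392790, plus strand), a membrane protein gene of macrophages that the rule did not read, was 1330 and 1130 CPM in members and 836 and 755 CPM in Gpnmb macrophages. Its excess over Gpnmb macrophages was 0.67 and 0.58 on the log2 scale, so it was shared by both groups rather than set apart by 2-fold.

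**Figure D1:**
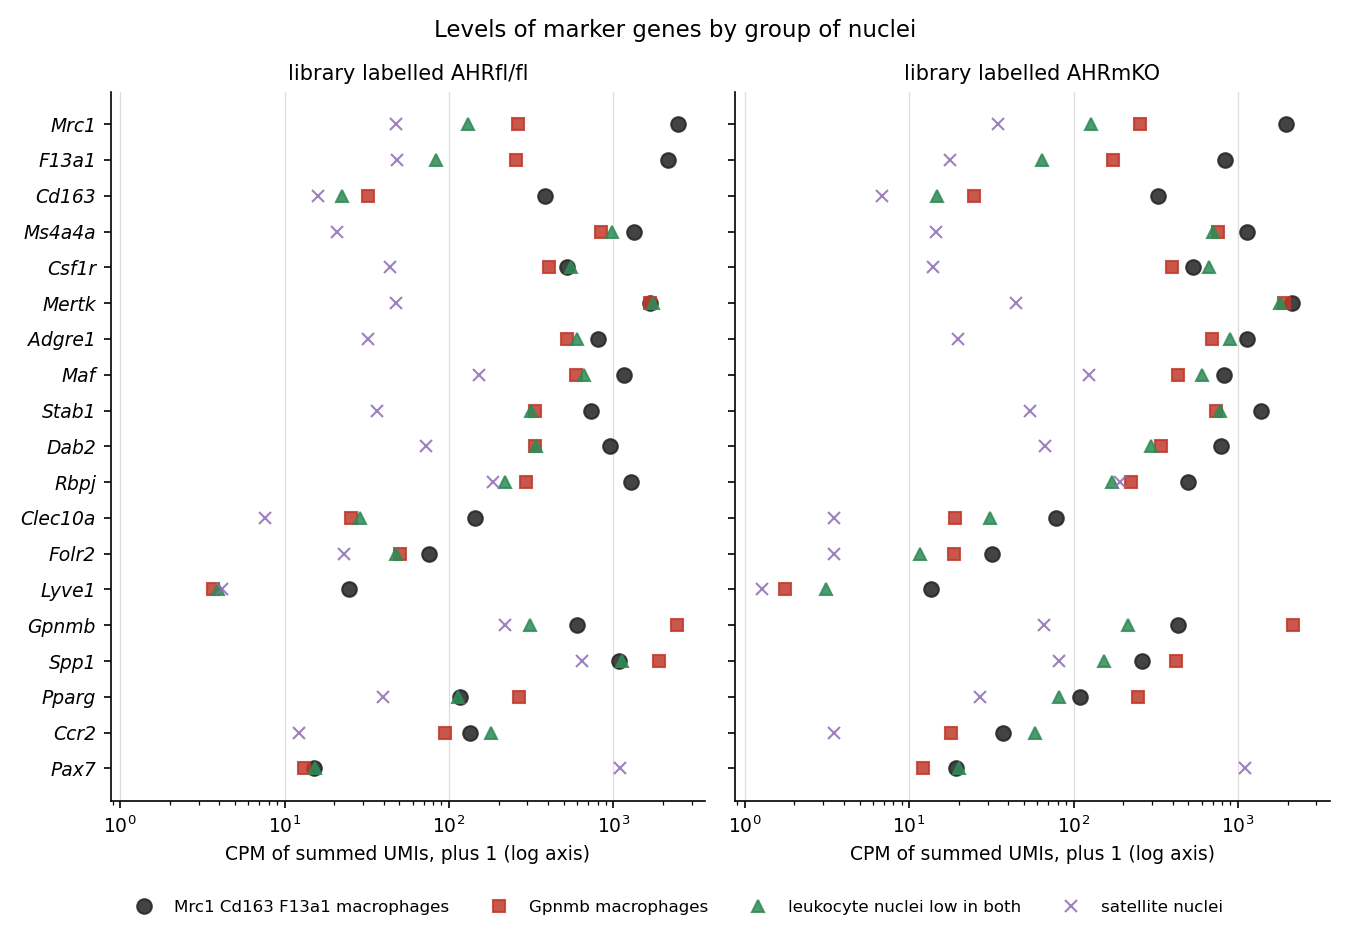
Level of marker genes in each group of nuclei, in CPM of summed UMIs plus 1 on a log axis, with 1 panel per library. Members stand far to the right of Gpnmb macrophages for Mrc1, F13a1 and Cd163, which the rule read, and also for Rbpj, Clec10a and Dab2, which it did not, while Csf1r and Mertk lie close together in all leukocyte groups.

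Members held the genes that define macrophages. Ptprc (CD45, the common leukocyte antigen, a gene of the rule) was 1455 and 1905 CPM, Csf1r (the receptor for macrophage growth factors) 522 and 534 CPM, Adgre1 (F4/80) 802 and 1136 CPM, and Mertk (a receptor for dying cells) 1677 and 2121 CPM in the libraries labelled AHRfl/fl and AHRmKO. After each nucleus was thinned to 2000 UMIs, 90.2% and 95% of members held a Mertk UMI. Satellite nuclei of muscle, which should lack it and give a level of background, held a Mertk UMI in 9.35% and 9.12%. They were nuclei with more than 1 Pax7 UMI, under 4 UMIs of the leukocyte genes and fibre genes under 1% of UMIs. The limit on leukocyte genes also limits macrophage RNA in them, so they may understate the background. The same shares for Mrc1 were 89.6% and 85.6% of members, beside 10.2% and 5.54% of satellite nuclei. F13a1 UMIs were in 75.3% and 52.8% of thinned members and 8.88% and 4.56% of satellite nuclei. For Cd163 the shares were 32.8% and 25.4% beside 2.86% and 0.977%. Unthinned, Mrc1 was seen in 93.1% and 91.0% of members, F13a1 in 79.6% and 63.9%, and Cd163 in 39.1% and 31.8%. Since the rule asked for UMIs of these 3 genes, the shares describe which of them carried the choice, most often Mrc1 and least often Cd163.

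Genes of long-lived resident macrophages were uneven. Timd4, the phosphatidylserine receptor TIM-4, was at 0 UMIs in members of either library, and the exact upper limit on the share of thinned members with a UMI was 0.225% and 1.23%. Lyve1, a hyaluronan receptor of perivascular macrophages, was 23.7 and 12.7 CPM from 142 and 16 UMIs, and was found in 3.6% and 2.68% of thinned members. Folr2, a folate receptor, reached 74.3 and 30.9 CPM, and Vsig4, a complement receptor, 46.3 and 15.1 CPM. Maf, a transcription factor of mature macrophages, was high at 1164 and 824 CPM. Ccr2, the chemokine receptor of monocytes recruited from blood, was present at 133 and 36.5 CPM. The group is thus named here by its leading genes and not as resident or recruited.

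Markers of other cell types were present at different totals in the 2 libraries. Summed over 8 muscle fibre genes, AHRfl/fl members held 3095 CPM and AHRmKO members 1017 CPM, while the level was 15860 and 8428 CPM in free RNA outside nuclei, measured here in the barcodes with 200 to under 500 UMIs. The 7 genes of immature muscle nuclei summed to 1240 and 133 CPM, and 6 genes of fibroadipogenic progenitors to 778 and 97.5 CPM. The 5 erythroid genes summed to 315 and 61.8 CPM. T and NK cell genes came to 22.2 and 11.1 CPM over 8 genes, dendritic cell genes to 26.7 and 9.51 CPM over 7, and mast cell genes to 3.67 and 4.76 CPM over 6. Ly6g and Retnlg of neutrophils, Ccr7 of dendritic cells, and Cma1, Tpsb2 and Fcer1a of mast cells had 0 UMIs in both. The B cell list summed to 234 and 89.6 CPM, of which Ebf1, also expressed outside B cells, made up 195 and 70.6 CPM, and the neutrophil list to 103 and 198 CPM, of which Csf3r made up 97.0 and 197 CPM. The summed fibre level of members was 19.5% and 12.1% of that in free RNA, but the rule capped fibre genes in members, so this sets no limit on their free RNA.

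No gap in counts marked the border of the rule. Members with 3 to 9 UMIs of the naming genes were 600 of 1639 in the library labelled AHRfl/fl and 173 of 299 in the other. The 96 and 31 members with exactly 3 UMIs of the naming genes held 713 and 521 CPM of Mrc1 and 262 and 377 CPM of F13a1. The 102 and 31 otherwise eligible nuclei with 2 UMIs, just outside, held 352 and 480 CPM of Mrc1 and 273 and 131 CPM of F13a1. Ms4a4a was 1105 and 801 CPM just inside and 1074 and 829 CPM just outside, so a gene outside the rule did not mark the border. Among members the sum had a median of 13 and 8 UMIs and reached 131 and 104.

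Some genes outside the rule varied along the sum of the naming genes and others moved little. Over members with 3 to 9, 10 to 19, and 20 or more UMIs of those genes, Lyve1 was 5.58, 10.1 and 45.6 CPM in the library labelled AHRfl/fl and 4.82, 12.4 and 28.4 CPM in the other, where these rest on 3, 4 and 9 UMIs. Ccr2 ran the other way, at 165, 138 and 107 CPM and at 49.8, 28.0 and 19 CPM, the latter from 31, 9 and 6 UMIs. Stab1, a scavenger receptor, was 597, 797 and 787 CPM and then 1225, 1357 and 1738 CPM. Csf1r was 541, 500 and 523 CPM and then 551, 516 and 521 CPM. Folr2 was 65.3, 78.3 and 78.1 CPM in the library labelled AHRfl/fl and 40.1, 24.8 and 19 CPM in the other, from 25, 8 and 6 UMIs, so its order differed from that of Lyve1 there. Depth also changed along these bands, with median UMIs per nucleus of 2663, 2887 and 3465, and of 2972, 3251 and 4988.

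In a first comparison, members were set against Gpnmb macrophages of the same library. Median UMIs per nucleus were 2921 in members and 2978 in Gpnmb macrophages of the library labelled AHRfl/fl, and 3238 and 3542 in the other. The genes compared, given below as tested, had at least 20 UMIs in sum and 10 CPM in 1 of the groups. A gene was called when the level differed by 2-fold or more in the same direction and the interval of the ratio left out 0 in both libraries. Of 8743 genes tested, 57 were called higher in members (0.652%) and 68 lower (0.778%), and the median log2 ratio was -0.01 and 0.02. The 6 genes that set the groups apart in the rule were left out of these counts.

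The genes called higher included a lipid transporter, a lectin and a cytokine receptor. Plekhg5 (chr4:152072498-152115400, plus strand), an exchange factor for RhoA, was 272 and 104 CPM in members against 21.4 and 14.1 CPM in Gpnmb macrophages, log2 ratios of 3.63 (3.48 to 3.86) and 2.84 (2.42 to 3.36). Abca9, a lipid transporter of the ABC family, followed at 306 and 199 CPM against 50.4 and 34.0 CPM (log2 2.59 and 2.53). Clec10a (chr11:70156197-70170834, plus strand), a lectin for terminal galactose and N-acetylgalactosamine, had log2 ratios of 2.53 and 2.07 and was seen in 21.2% and 15.4% of thinned members, beside 4.51% and 3.68% of Gpnmb macrophages. Lifr (chr15:7090614-7197489, plus strand), the receptor for leukaemia inhibitory factor, stood at 480 and 216 CPM against 117 and 48.3 CPM. These genes were higher in members of each library alone.

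Rbpj (chr5:53466152-53657362, plus strand), the DNA-binding factor of Notch signalling, was 1271 and 494 CPM in members against 292 and 223 CPM, log2 ratios of 2.12 and 1.15. Dab2, an adaptor for endocytosis, was 956 and 792 CPM against 330 and 341 CPM. Nrg2, a ligand of ErbB receptors, had ratios of 1.59 and 1.62, Stxbp6 2.29 and 1.41, the guanylate-binding protein gene Gbp7 1.25 and 1.49, and Ermard 1.45 and 1.12. Gbp7 was seen in 11.5% and 9.37% of thinned members, and in 8.75% and 10.03% of leukocyte nuclei low in both gene sums (under 3 UMIs of each). The same shares for Nrg2 were 18.2% and 10.03%, and 12.2% and 8.15%. Clec10a was seen in 5.67% and 5.02% of the nuclei low in both, far below its shares in members. Further called genes belonged to the lists used here, where 0.652% of all genes were called higher: Cbr2, Vsig4 and Clec10a of 8 tested resident macrophage genes, Ccl6, Ccl9 and Ccl12 of 14 tested chemokine genes, C4b of the complement genes, and Rbpj and Klf4 of 18 tested macrophage transcription factors. Klf4 was 34.3 and 93.5 CPM in members and 12.0 and 42.0 CPM in Gpnmb macrophages.

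Genes called lower included receptors, a nuclear receptor and proteases. Il7r, a cytokine receptor chain, was 39.5 and 76.9 CPM in members and 176 and 246 CPM in Gpnmb macrophages, log2 ratios of -2.15 (-2.36 to -1.96) and -1.67 (-1.99 to -1.38). Dock3, an exchange factor for Rac, was 11.7 and 15.1 CPM against 53.6 and 83.3 CPM. Pparg (chr6:115360951-115490399, plus strand), the lipid-sensing nuclear receptor, was 116 and 108 CPM against 266 and 247 CPM, log2 ratios of -1.20 and -1.19. Myo1e stood at -1.46 and -1.66, the lysosomal trafficking gene Lyst at -1.26 and -1.61, Gpr137b at -1.40 and -1.42, Xylt1 at -1.45 and -1.23, the receptor gene Cd300lf at -1.50 and -1.33, and Adra1a at -1.38 and -1.32, of which the second was -0.91, short of the call, under a mitochondrial limit of 2%. Htr2b, at -1.56 and -1.50, lies opposite the more abundant Psmd1 and is uncertain, since reads of opposite strands may have been counted together. For some of these genes, nuclei low in both gene sums stood nearer to members than to Gpnmb macrophages. A low level was thus not particular to members. Il7r was seen in 6.96% and 10.4% of thinned members, 22.3% and 27.9% of Gpnmb macrophages and 6.74% and 13.5% of nuclei low in both. For Pparg the shares were 15.5% and 15.7%, 31.95% and 28.7%, and 17.85% and 10.7%. Xylt1 lay between, at 26.1%, 60.2% and 42.4% in the library labelled AHRfl/fl. Of the lists, Mmp12 and Ctsk, proteases that degrade elastin and collagen, were lower (Mmp12 8.0 and 7.93 CPM against 60.8 and 60.9 CPM), as were Cd5l and Bhlhe41. Mmp12 was seen in 1.77% and 1.003% of thinned members and in 4.34% and 1.07% of Gpnmb macrophages. Few nuclei thus carried its UMIs, and in the library labelled AHRmKO the shares of nuclei were alike. None of 14 tested lipid-handling genes outside the rule's own Gpnmb and Atp6v0d2 was called, and their list had a median of -0.58 and -0.65 beside medians of -0.01 and 0.02 over all genes.

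**Figure D2:**
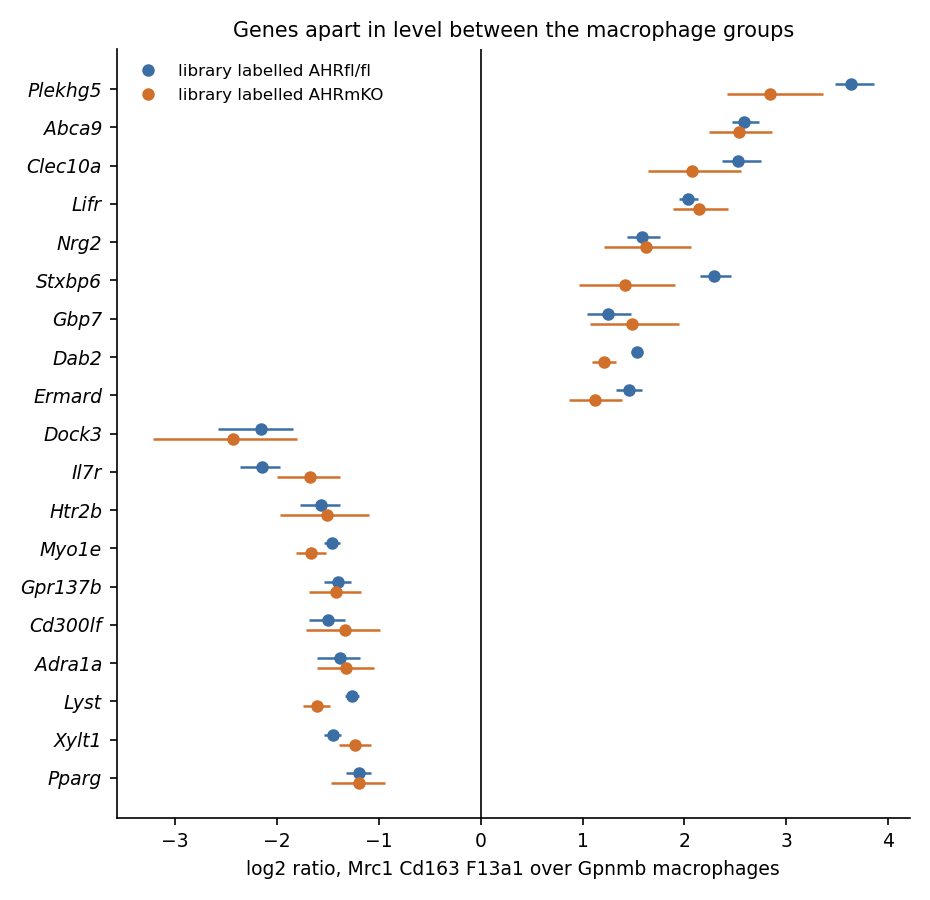
Log2 ratio of members over Gpnmb macrophages for genes with the highest and the lowest ratios under the naming rule, with 95% counting intervals, 1 colour per library. The 2 libraries give ratios of the same sign for each gene, from 3.63 for Plekhg5 to -2.43 for Dock3.

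Genes of macrophage identity, uptake of dying cells and iron handling gave 1 call, near the share of all genes (0.652% higher and 0.778% lower). Of 12 tested identity genes, 13 for uptake of apoptotic cells and 12 for iron and haem, the call was Cd300lf, lower in members. Hmox1, the haem-degrading enzyme, was 31.5 and 19.8 CPM in members against 26.3 and 18.9 CPM. Slc40a1, the iron exporter ferroportin, was 9.67 and 15.9 CPM against 10.8 and 8.31 CPM. Arg1 was 4.17 and 5.55 CPM, and Retnla had 6 and 0 UMIs, so 2 widely used genes of the response to IL-4 were near the floor of detection in members.

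Within the members, the naming genes did not always occur together. All 3 had a UMI in 30.02% of AHRfl/fl members (27.8 to 32.3) and 19.1% of AHRmKO members (14.8 to 24.0). Mrc1 with F13a1 and without Cd163 was the commonest pattern, at 43.0% and 36.5%. Mrc1 alone was found in 12.7% (11.1 to 14.4) and 25.1% (20.3 to 30.4), and F13a1 alone in 5.25% and 6.69%. More F13a1 than Mrc1 UMIs were held by 39.7% (37.3 to 42.1) and 25.4% (20.6 to 30.8). The rule read these genes, and the intervals are over nuclei of 1 library each, so the shares describe these members and compare no genotypes.

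**Figure D3:**
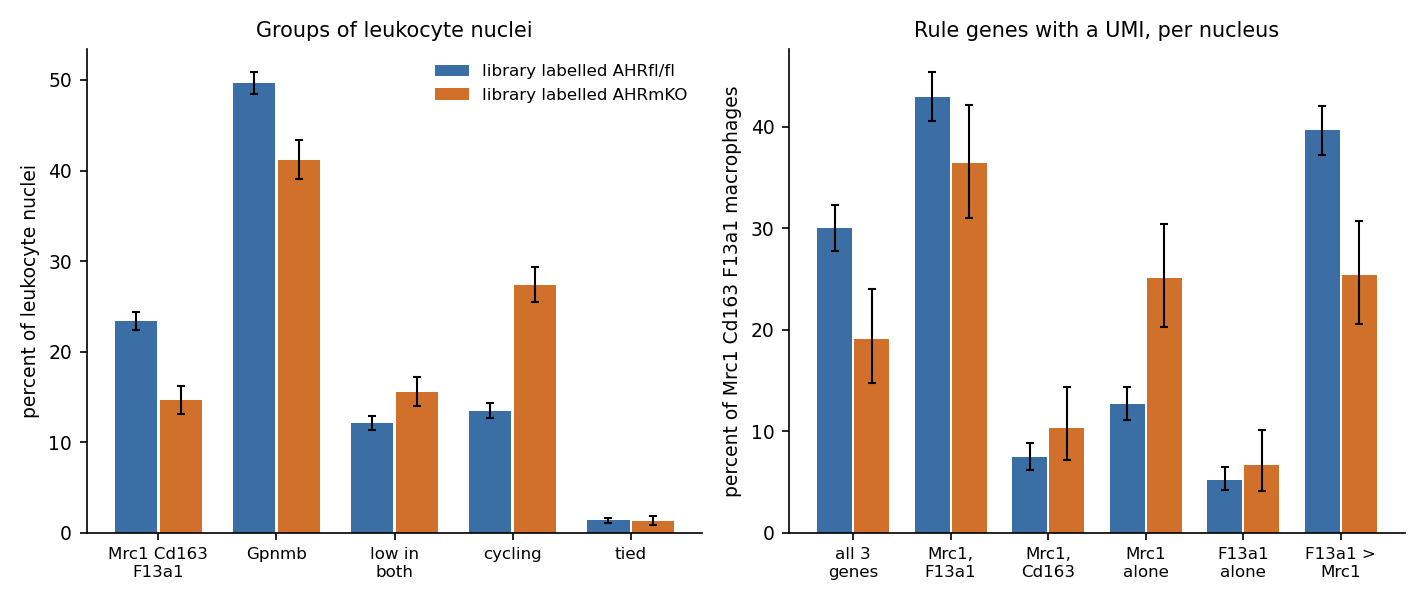
Left, each group's share of leukocyte nuclei in percent. Right, the share of members with a UMI in each combination of the naming genes. Bars are 1 per library, and error bars are exact 95% binomial intervals. Members make up 23.4% and 14.6% of leukocyte nuclei, and Mrc1 alone is seen in 12.7% and 25.1% of them.

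Splits of the members by these genes were made after values had been seen, and show what went with each. Members with a Cd163 UMI (641 and 95) held more Pdgfc, a platelet-derived growth factor, than those without (998 and 204), at 734 against 462 CPM in the library labelled AHRfl/fl and 622 against 358 CPM in the other. The log2 ratios were 0.67 (0.57 to 0.76) and 0.80 (0.55 to 1.04). Rbpj was 1579 against 1042 CPM and 651 against 416 CPM. Plekhg5 (0.54 and 1.07), Cnrip1 (0.57 and 1.12) and Slit1 (0.63 and 0.85) differed in the same direction. Rbpj and Plekhg5, which were higher in members than in Gpnmb macrophages, were also higher in the members with Cd163. The rule read Cd163 and the same nuclei served both comparisons, so neither adds support to the other. Integrin alpha V (Itgav), at -0.38 (-0.51 to -0.25) and -0.49 (-0.73 to -0.25), and Sirpb1c, at -0.81 and -0.64, were lower there. Ccr2 was lower in Cd163-holding members of the library labelled AHRfl/fl, at 81.9 against 171 CPM, a log2 ratio of -1.05 (-1.29 to -0.83). In the other library Ccr2 was 45.5 against 32.0 CPM, with an interval of -0.42 to 1.41. Median UMIs per nucleus were 3017 with Cd163 and 2857 without in the first library and 3251 and 3185 in the second, so the split also followed depth a little.

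Members with more F13a1 than Mrc1 (650 and 76) differed from those with more Mrc1 (927 and 209) in other genes. Nedd9, a scaffold of focal adhesions, was 264 against 157 CPM and 348 against 208 CPM, log2 ratios of 0.75 (0.59 to 0.92) and 0.74 (0.38 to 1.10). Arhgef37 (0.80 and 1.10), Cd300lf (0.68 and 0.92) and Csf3r, the granulocyte colony-stimulating factor receptor (0.52 and 0.67), were also higher. The scavenger receptor Msr1 (-0.46 and -0.66), Psd3 (-0.51 and -0.91) and Dab2 (-0.45 and -0.36) were lower. Stab1 was 738 and 736 CPM in the first library and 1461 and 1383 CPM in the second, log2 ratios of 0.0045 (-0.08 to 0.09) and 0.08 (-0.08 to 0.24). Ccr2 was 160 against 112 CPM (0.51, 0.31 to 0.72) and 47.7 against 33.4 CPM, an interval of -0.51 to 1.48 in the smaller library.

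Co-detection in thinned members gave a coarser view. Of the 137 AHRfl/fl members with an H2-Aa UMI, a chain of the antigen-presenting MHC class II molecule, 37.96% also held Cd74, its invariant chain, against 14.5% of the 1502 without. In the same library, Cd163-holding members held Ccr2 in 10.4% and those without in 17.9%, and Folr2 in 18.6% and 12.1%. In the library labelled AHRmKO, a single thinned member held H2-Aa, 18 held Ccr2 and 16 held Folr2, too few to read such shares with weight. Folr2 stood in the other order there, at 3.95% of Cd163-holding members and 5.83% of the others.

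The second comparison was between the libraries, which differ in the labelled genotype and in all else that 2 separate libraries can differ in. Members were 23.4% of 7006 leukocyte nuclei in the library labelled AHRfl/fl (22.4 to 24.4) and 14.6% of 2047 in that labelled AHRmKO (13.1 to 16.2). The difference was -8.79 percentage points (-10.6 to -6.92, Newcombe interval). Gpnmb macrophages were 49.7% and 41.2%, nuclei low in both gene sums 12.1% and 15.6%, and cycling leukocyte nuclei 13.5% and 27.4%. Without the cycling nuclei in the denominator, members were 27.1% and 20.1%. When F13a1 was left out of the rule the shares were 17.7% and 11.04%, a difference of -6.70 points. Counted among all nuclei, members were 9.65% and 4.51%. With 1 library a group, whether the genotype sets this share cannot be told apart from the library.

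Library quality also differed among members. Median UMIs were 2921 in AHRfl/fl members and 3238 in AHRmKO members, and median genes 1796 and 1844. The median mitochondrial share was 0.865% and 2.16%. No member barcode was a member in both libraries, and 30 barcodes of passing nuclei occurred in both. The whole libraries held 151788328 and 113737134 UMIs.

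Of 10138 genes tested, 441 were called higher (4.35%) and 1695 lower (16.7%) in members of the library labelled AHRmKO, here with 2-fold or more and an interval that left out 0, and the median log2 ratio was -0.05. Gpnmb macrophages gave 192 higher (1.91%) and 1721 lower (17.1%) of 10056. Of the genes called lower in members, 1317 were called lower in Gpnmb macrophages as well, 77.7% of the members' list and 76.5% of the other. Of those called higher, 135 were shared, 30.6% and 70.3%. Among the lower calls, 1137 were at least as abundant in free RNA of the library labelled AHRfl/fl as in its members. Among the higher calls, 39 were at least as abundant in free RNA of the library labelled AHRmKO as in its members. These 2 counts use free RNA of different libraries. The matching shares over all tested genes were not computed, so the counts are not read as a trait of the called genes. Of 77 tested ribosomal protein genes 75 were called lower, with a median of -2.86, and genes of at most 5 kb had a median of -1.01 beside values from -0.11 to 0.06 in the longer classes. Subtracting the free RNA profile changed the counts to 783 higher and 1125 lower. The amount subtracted was set by the members' fibre genes, which the rule capped. These counts therefore do not show what remains without free RNA. The part of free RNA in the lower calls was not tested further.

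Ahr itself, the gene targeted in muscle fibres, was 35.5 CPM (213 UMIs) in AHRfl/fl members and 69.0 CPM (87 UMIs) in AHRmKO members, a log2 ratio of 0.95 (0.58 to 1.32) that fell short of the 2-fold call. The ratio ran from 0.60 to 1.25 over the alternative settings and passed 2-fold in some of them. Gpnmb macrophages held 28.3 and 30.2 CPM, and the members' ratio exceeded theirs by 0.85 (0.39 to 1.32). Ahr was seen in 7.016% (5.827 to 8.362) and 10.37% (7.154 to 14.39) of thinned members. The shares were 5.489% and 4.626% of Gpnmb macrophages, 6.856% and 8.777% of nuclei low in both gene sums, and 6.597% and 11.56% of satellite nuclei. A higher share in the library labelled AHRmKO was thus not particular to members. Free RNA held 18.5 and 20.1 CPM. A count per gene taken near its 3′ end does not show whether a deleted exon is absent, so these values check no label. Arnt, the partner of AHR, was 231 and 166 CPM. Tiparp, a target gene that dampens AHR, was 92.0 and 89.6 CPM. Cyp1a1, the classical target, had 1 and 0 UMIs, Cyp1a2 none, and Cyp1b1 34 and 2. Of 6 tested genes of the pathway, the chaperone genes Hsp90aa1 and Hsp90ab1 were called lower and none was called higher, beside 4.35% called higher and 16.7% called lower of all genes. The pathway's list summed to 803 and 426 CPM in members and to 2464 and 494 CPM in free RNA. The part of free RNA in these lower calls was not tested.

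Early response genes, transcribed within minutes of a stimulus or of tissue handling, made up the list with the most higher calls in AHRmKO members. Of 17 tested, 9 were called higher and 0 lower, beside 4.35% and 16.7% of all genes, and the median was 1.43 in members and 0.62 in Gpnmb macrophages. Fosb (chr7:19302696-19310051, minus strand) was 4.83 and 213 CPM, a log2 ratio of 5.32 (4.91 to 6.07). Fos (chr12:85473890-85477273, plus strand) was 29.0 and 349 CPM, log2 3.57 (3.33 to 3.85), and its share of thinned members was 5.61% and 41.5%, beside 1.40% and 23.8% of satellite nuclei. Atf3 (chr1:191170296-191218039, minus strand), a stress-induced transcription factor, was 15.8 and 124 CPM, log2 2.93 (2.59 to 3.35). The other calls were Jund, Egr1, Dusp1, Nr4a1, Klf4 and Klf6. Dusp1, a phosphatase of MAP kinases, was 73.7 and 266 CPM, and Klf6 106 and 316 CPM.

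Some of these ratios were shared with Gpnmb macrophages and some were larger in members than in Gpnmb macrophages. Fos stood at 3.46 in Gpnmb macrophages, and the difference of the ratios, 0.11, had an interval of -0.20 to 0.41. For Fosb the difference was 0.56 (-0.14 to 1.25). Atf3 was 1.58 in Gpnmb macrophages, 1.35 below members (0.94 to 1.76), though its level there, 43.5 and 131 CPM, began above that of members. Nr4a1, an orphan nuclear receptor, was 13.3 and 46.8 CPM in members and exceeded the Gpnmb ratio by 1.30 (0.71 to 1.89). Atf3 was seen in 2.75% and 13.7% of thinned members and in 3.55% and 12.85% of nuclei low in both gene sums. For Nr4a1 the shares were 2.56% and 10.03%, and 2.955% and 7.52%. A higher share of either gene in the library labelled AHRmKO was thus not particular to members. Egr1, at 11.5 and 36.5 CPM, lay below its free RNA level of 59.9 and 97.7 CPM, and its ratio of 1.62 was 0.70 under a mitochondrial limit of 2% and 5.83 with the free RNA profile subtracted. Free RNA ratios were 2.22 for Fos and 3.26 for Fosb but 0.34 for Atf3. Whether handling of the tissue or the higher mitochondrial share of this library goes with these genes was not tested.

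Inflammatory and chemokine genes split. Il1b (chr2:129364570-129371139), the cytokine interleukin 1 beta, was 3.67 and 41.2 CPM from 22 and 52 UMIs, log2 3.32 (2.75 to 4.28), and exceeded the Gpnmb ratio by 2.22 (1.30 to 3.13). It was seen in 0.366% and 3.34% of members thinned to 2000 UMIs (1.1% and 5.35% unthinned), so few nuclei carried these UMIs. In nuclei low in both gene sums the thinned shares of Il1b were 1.3% and 3.76%. A higher share in the library labelled AHRmKO was thus not particular to members. Cxcl2, a neutrophil chemokine, was 3.0 and 18.2 CPM from 18 and 23 UMIs, a ratio of 2.42 that came to 0.80 under a mitochondrial limit of 2%. Ccl3 was 8.34 and 25.4 CPM, and Cxcr4, a receptor for CXCL12, 62.4 and 151 CPM. Of 19 tested chemokine and receptor genes, 3 were called higher and 9 lower, beside 4.35% called higher and 16.7% called lower of all genes, with a median of -0.55 in members and -1.31 in Gpnmb macrophages. Ccl8, at 113 and 7.13 CPM, and Pf4, at 150 and 23.0 CPM, were among the lower, and in free RNA they were 218 and 11.7 CPM and 523 and 52.0 CPM. Ccr2 was 133 and 36.5 CPM, log2 -1.85 (-2.33 to -1.44). Of 8 tested monocyte and inflammatory genes, 1 was called higher and 5 lower, beside the same shares, with a median of -2.46 in members and -2.52 in Gpnmb macrophages. The list's 16 genes summed to 587 and 266 CPM in members, below their sum in free RNA in both libraries (1360 CPM there in the library labelled AHRfl/fl).

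**Figure D4:**
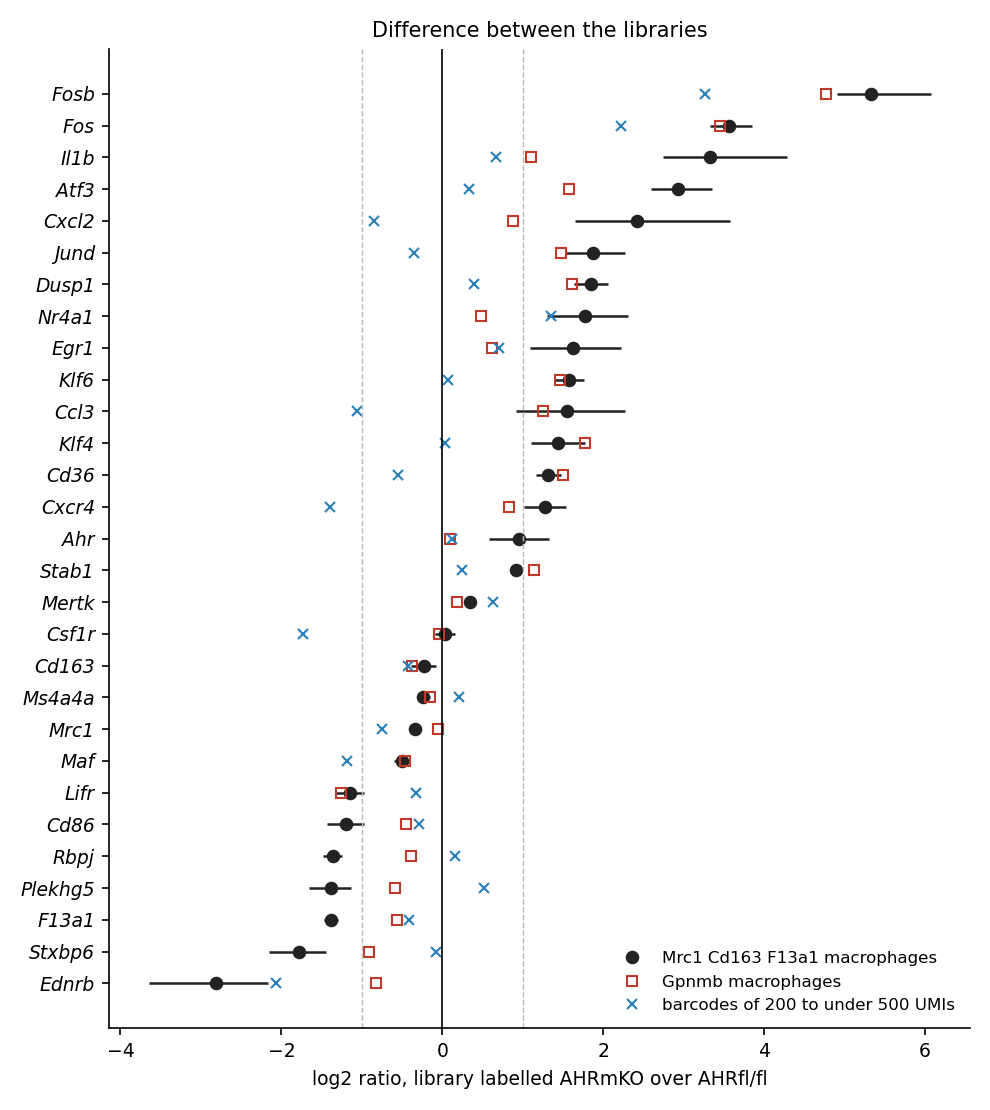
Log2 ratio, library labelled AHRmKO over AHRfl/fl, of selected genes in members (black, with 95% counting intervals), Gpnmb macrophages (red squares) and barcodes of 200 to under 500 UMIs (blue crosses), dashed lines at 2-fold. Fosb, Fos and Il1b lie farthest right in members, Ednrb and Stxbp6 farthest left, and the red squares of Rbpj, F13a1, Atf3 and Il1b lie nearer to 0 than the black points.

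F13a1 was the naming gene called lower, at 2159 and 828 CPM (log2 -1.38, -1.47 to -1.29), and its ratio in Gpnmb macrophages was -0.56, and the 2 ratios differed by -0.82 (-0.97 to -0.68). In satellite nuclei, where its UMIs are background, the ratio was -1.47. Mrc1 had a ratio of -0.34 (-0.40 to -0.27), Cd163 -0.23 (-0.39 to -0.08) and Ms4a4a -0.23 (-0.32 to -0.15), all short of 2-fold. Rbpj fell from 1271 to 494 CPM, log2 -1.36 (-1.48 to -1.25). Its ratio in Gpnmb macrophages was -0.39 and in free RNA 0.16, and the ratios of the 2 macrophage groups differed by -0.97 (-1.13 to -0.81). Plekhg5 (-1.38), Stxbp6 (-1.78) and the costimulatory ligand Cd86 (-1.20) also fell, and each ratio lay below that in Gpnmb macrophages with an interval that left out 0. Lifr fell by 1.15 on the log2 scale in members and by 1.26 in Gpnmb macrophages, a difference of 0.11 (-0.17 to 0.39). Rbpj, Plekhg5 and Stxbp6 thus set members less far apart from Gpnmb macrophages in the library labelled AHRmKO. Members there also held fewer UMIs of the naming genes, with a median sum of 8 against 13. Whether this goes with the lower levels was not tested. The values of F13a1 are a description, since the rule read it in both groups.

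Further genes were looked up after their values had been seen, for having no more abundant gene on the other strand or a ratio apart from that in Gpnmb macrophages. Ednrb (chr14:103814625-103844402, minus strand), the endothelin receptor type B, was 97.9 CPM (587 UMIs) and 13.5 CPM (17 UMIs), log2 -2.81 (-3.65 to -2.17), and lay 1.99 below the Gpnmb ratio (interval of the difference -2.90 to -1.08). It was in 12.6% and 4.01% of thinned members and in 2.16% and 0.830% of Gpnmb macrophages, and its free RNA level was 29.3 and 6.64 CPM. Etv1, an ETS family transcription factor, was 58.2 and 22.2 CPM, with a difference of -1.79 (-2.48 to -1.10). The ubiquitin ligase gene March3 (173 and 61.8 CPM), the guanine deaminase gene Gda (245 and 73.7 CPM), the oestrogen receptor gene Esr1 (102 and 42.8 CPM) and Rasgrp3 (65.5 and 27.7 CPM) were lower as well, the last by less than 2-fold with a minimum of 1000 UMIs (log2 -0.93). Fgfr2 was 328 and 65.8 CPM, with a ratio of -2.31 in members and -2.25 in Gpnmb macrophages. On the higher side, Rgs1, a regulator of G protein signalling, was 50.7 and 201 CPM and exceeded the Gpnmb ratio by 1.01 (0.75 to 1.27). Its thinned shares were 6.47% and 20.7% of members, but 17.1% and 29.1% of Gpnmb macrophages. In nuclei low in both gene sums they were 9.93% and 20.1%. St6galnac3 was 16.8 and 61.8 CPM, but its ratio of 1.85 came to 0.54 when 6 UMIs of the naming genes were required.

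By the rule for named genes, the remaining highest ratios in AHRmKO members were Neurl2 (2.34, opposite the more abundant Ctsa and uncertain), Rilpl2 (2.22), Nfkbid, an inhibitor-like regulator of NF-kappaB (2.11), Zfyve28 (2.07), Gbp9 (2.02), the vesicular nucleotide transporter Slc17a9 (2.02) and Lrrc45 (2.02). Zfyve28 exceeded the Gpnmb ratio by 1.27 (0.81 to 1.73) and Gbp9 by 1.09 (0.50 to 1.68). Both were also higher in that library in nuclei low in both gene sums. Zfyve28 was seen in 3.54% and 11.4% of thinned members and 5.08% and 12.5% of those nuclei. For Gbp9 the shares were 2.38% and 9.03%, and 6.03% and 10.97%. Of the 10 lowest, Hsf3 was 70.4 and 2.38 CPM from 422 and 3 UMIs, log2 -4.62 (-7.17 to -3.33). The 9 others, Ccdc152, Tg, Lysmd4, Insyn2b, Lrrc4, Cp, Far1os, Usp50 and Rsf1os1, each lie opposite a more abundant gene of the other strand (Selenop, Sla, Mef2a, Dock2, Snd1, Hps3, Far1, Usp8 and Rsf1), and their ratios, from -4.52 to -3.48, are uncertain. In all, 461 of the genes called lower and 27 of those called higher had such a partner. The share of all tested genes with such a partner was not computed, so these counts are not read as a trait of the called genes.

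Scavenger receptors and receptors for dying cells are set beside 4.35% called higher and 16.7% called lower of all genes, and their counts rest on few genes. Of 10 tested scavenger and endocytic receptors, 1 was called higher and 0 lower, and of 13 genes for uptake of apoptotic cells 0 were called, with medians of 0.08 and 0.12. Cd36, a receptor for oxidised lipoproteins, was the call, at 162 and 404 CPM in members, log2 1.32 (1.16 to 1.48), and 285 and 807 CPM in Gpnmb macrophages (1.5). Stab1 (chr14:31139013-31168641, minus strand) was 733 and 1387 CPM, log2 0.92 (0.84 to 1.0), just short of 2-fold but 1.06 with a minimum of 1000 UMIs, beside 1.14 in Gpnmb macrophages, and was seen in 66.8% and 83.6% of thinned members. Mertk was 0.34, the integrin genes Itgav and Itgb5 0.75 and 0.69, and Abca1, the cholesterol exporter, 0.59. Csf1r stood at 0.03 (-0.09 to 0.15).

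Complement, MHC class II, lipid and matrix lists are given with their lower calls in members, beside 4.35% called higher and 16.7% called lower of all genes, with their median in Gpnmb macrophages in brackets and with levels in free RNA. Complement counted 6 lower of 10 tested with a median of -1.11 (-0.80 in Gpnmb macrophages), and the list's summed level in free RNA was 3089 and 362 CPM. C1qa was 315 and 45.2 CPM, and 699 and 38.3 CPM in free RNA, while C1qb was 529 and 226 CPM. MHC class II counted 6 lower of 10 with a median of -1.37 (-1.10), and Cd74 was 106 and 16.6 CPM, and 242 and 15 CPM in free RNA. Lipid handling counted 8 lower of 16 with a median of -1.21 (-1.01), led by Apoe at 3704 and 579 CPM, and 8436 and 465 CPM in free RNA. Matrix genes counted 7 lower and 2 higher of 15 with a median of -1.0 (-0.80), the higher being Mmp19, at 36.7 and 78.5 CPM, and Adam8, at 81.4 and 163 CPM. The Mmp19 ratio of 1.09 came under 2-fold in 4 alternative settings, lowest at 0.90 with a minimum of 1000 UMIs. Col3a1, a collagen of fibroblasts, was 438 and 41.2 CPM, and 1713 and 232 CPM in free RNA. In each of these lists the free RNA sum was above the members' sum in the library labelled AHRfl/fl, and the part of free RNA in the members' lower levels was not tested.

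**Figure D5:**
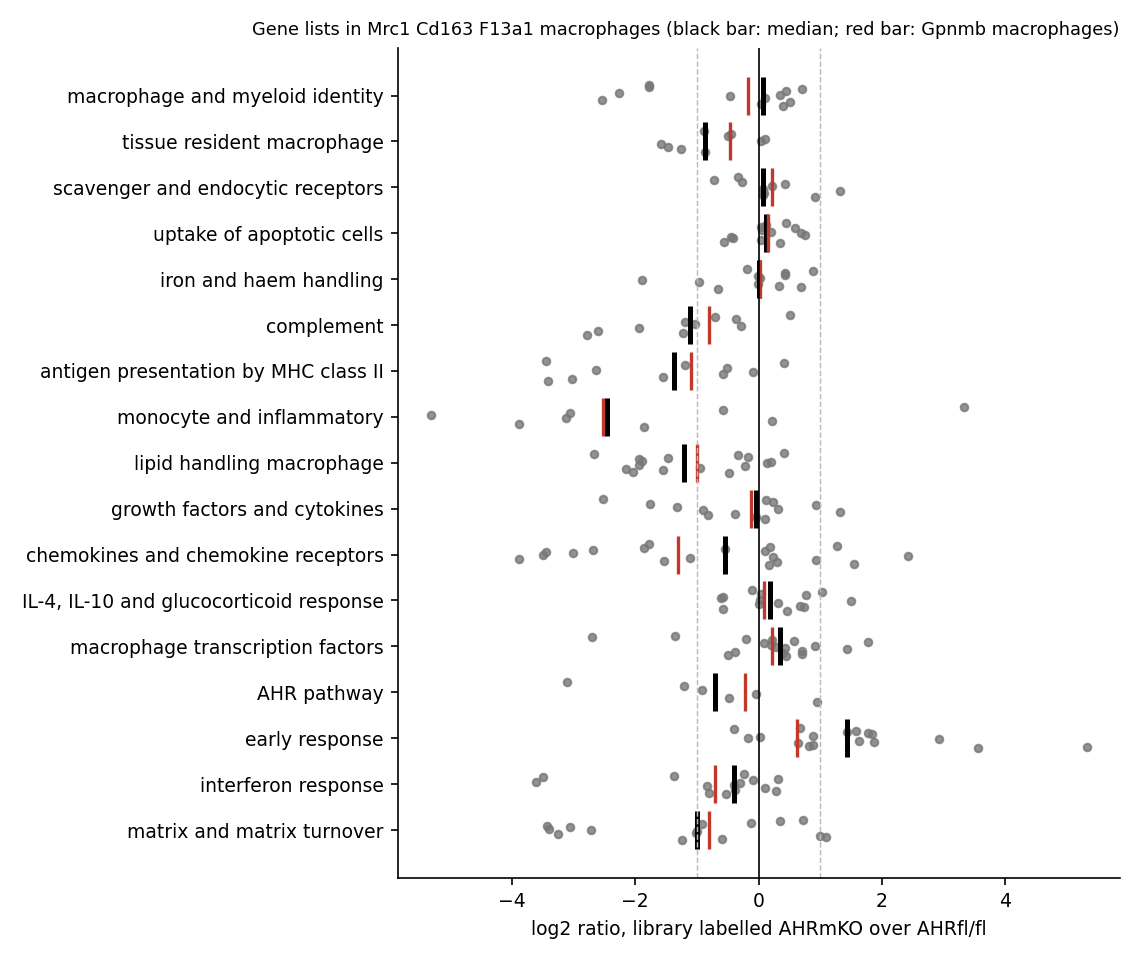
Log2 ratio, library labelled AHRmKO over AHRfl/fl, of every tested gene of 17 lists in members (grey points), with the median in members (black bar) and in Gpnmb macrophages (red bar), dashed lines at 2-fold. The median of early response genes is 1.43, and those of monocyte, MHC class II, lipid and complement genes lie between -2.46 and -1.11.

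The remaining lists are set beside 4.35% called higher and 16.7% called lower of all genes, and the interferon, growth factor and iron counts lie near those shares. Of 12 tested identity genes, Cd68, Lyz2, Tyrobp and Cx3cr1 were called lower (Cx3cr1 lies opposite the more abundant Wdr48), and the median was 0.06. This list summed to 6744 and 6925 CPM in members and to 5771 and 1509 CPM in free RNA. Thinned satellite nuclei held Lyz2 in 53.7% and 5.7%, Tyrobp in 18.96% and 1.47%, Cd68 in 12.9% and 0.814%, and Cx3cr1 in 3.38% and 0.814%. The part of free RNA in these lower calls was not tested. Of 9 tested resident macrophage genes, Folr2, Cbr2 and Vsig4 were called lower, with a median of -0.87 (-0.46 in Gpnmb macrophages). Iron and haem handling had 1 lower call of 12, the ferritin light chain gene Ftl1. That list summed to 1738 and 1565 CPM in members and to 3730 and 1580 CPM in free RNA, whose part in the call was not tested. Of 14 genes of the response to IL-4, IL-10 and glucocorticoid, Socs3 (7.84 and 23.0 CPM) and Nr1h3 (23.8 and 49.2 CPM) were called higher. Fkbp5, a glucocorticoid target, was 1264 and 825 CPM, log2 -0.61. Growth factor genes had 3 lower calls, Tgfb2, Csf1 and Nrg1, and 1 higher call, Vegfa, from 38 and 21 UMIs, of 13 tested. The Vegfa ratio of 1.33 came under 2-fold in 4 alternative settings, was lowest at 0.68 with 6 UMIs of the naming genes required, and was 2.19 with each nucleus thinned. Igf1, which promotes muscle growth, was 259 and 278 CPM, and Hgf, which activates satellite cells, 114 and 133 CPM. Interferon response genes had 3 lower calls of 14. Of 18 transcription factor genes, Klf4 and Nr4a1 were called higher and Id3 and Rbpj lower, while Spi1 and Irf8 were 0.44 and 0.70.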

How the data were processed

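The deposited values were whole UMI counts for every barcode, unfiltered and not normalized, in 2 single-nucleus RNA libraries, 1 per group. The authors made the libraries with a Chromium 3′ HT kit, and per the submitters' processing notes the counts came from Cell Ranger 7.0.1 on mm10. Whether introns or strand were used in counting is not given in the sources used here. Counts summed over members were scaled to CPM (counts per 1000000 UMIs), and log2 ratios were taken with 0.5 CPM added, with exact conditional binomial intervals. Genes between libraries needed 20 UMIs in sum and 10 CPM in 1 library. Shares have exact Clopper-Pearson intervals, and ratios of the 2 macrophage groups were set against each other with Wald intervals. No p-value was computed. Nuclei were thinned to 2000 UMIs for shares with a UMI.

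Opposite-strand partners, positions and lengths came from GENCODE M21, promoters from RefSeq, of which 7 of 8 genes looked up matched. The genes named by rule were those 10 with the highest and 10 with the lowest ratio that had 50 CPM and 30 UMIs in the higher group and were there at least 2 times as high as in free RNA, leaving out mitochondrial, haemoglobin, ribosomal protein and clone-named genes and genes of the rule. Some genes that these rules and lists hold are not reported here. Members and gene lists were chosen with earlier results of these data known. Doublets were kept, and Scrublet was run as an alternative. The intervals were checked on simulated counts. Work ran in Python 3.11.15 with numpy 2.4.6, scipy 1.17.1, pandas 2.3.3, scanpy 1.11.5 and matplotlib 3.10.9.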

Additional observations from a re-analysis of the deposited data

How the results depend on the processing

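With 1 library per group nothing here measures the spread between animals, the members of the library labelled AHRmKO were 299 nuclei, and depth limits genes under about 10 CPM. No paired analysis was possible because the labels carry no replicate numbers and each group has 1 library. Of 68 alternative values of the counts of called genes and of the share of leukocyte nuclei, 56 stayed within 1.5 times the reported count or inside the 95% interval of the reported share difference, and 12 did not. Of 1155 alternative ratios of named genes, 1035 lay inside the reported ratio's 95% counting interval, 120 lay outside it and 0 of those called changed sign. Subtracting the free RNA profile, in an amount set by fibre genes that the rule capped, gave 783 genes higher and 1125 lower in the library labelled AHRmKO. Adding 5 CPM gave 238 higher there, and 36 higher and 40 lower than in Gpnmb macrophages. Requiring 50 CPM, which tests fewer genes, gave 164 higher and 559 lower between libraries and 21 higher and 31 lower than in Gpnmb macrophages. Leaving out genes at or below their free RNA level, a setting added after seeing the data, gave 558 lower between libraries. The share of leukocyte nuclei differed by -6.70 points when F13a1 was left out of the rule and by -5.14 points when all nuclei were the denominator, both added after seeing the data. In the other settings the difference ran from -10.2 points (mitochondrial limit of 2%) to -6.94 points (cycling nuclei left out of the denominator, added later). Leaving out the top Scrublet scores removed 35 and 0 members and gave 430 higher and 1644 lower. The causes of these shifts were not tested.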
